A study of Mus musculus with 6 samples.

Results

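Genes that make or break down prostaglandins, or sense prostaglandin E2, were followed in osteoblasts (OBs). The cells had been sorted by their ECFP signal out of ectopic bone raised with BMP-2. The set was the 10 genes with the symbols *Ptgs1*, *Ptgs2*, *Ptges*, *Ptgis*, *Ptgds*, *Hpgd*, *Ptger1*, *Ptger2*, *Ptger3* and *Ptger4*. All were taken by name from 23284 genes listed in each of 6 RNA-seq samples. The source was *Col2.3*-ECFP mice carrying a collagen sponge with BMP-2 under the skin of the back, with 3 samples from day 10 and 3 from day 14. The question here is whether transcripts of the pathway were at other levels on the later day. The mice were male, 12 to 16 weeks old, and each sponge carried 2.5 μg of recombinant human BMP-2. All samples carried the same reporter, in which a type I collagen promoter drives ECFP in OBs, and all came from BMP-2 implants, so neither normal bone nor a sponge without BMP-2 was in the comparison. Cells positive for CD45 or for the dead-cell dye 7AAD had been gated out. The later bone pieces had a second round of collagenase digestion that the earlier ones did not have, so digestion and day cannot be told apart. By title the later samples are all of day 14, but the descriptions attached to replicates 1, 2 and 3 name days 14, 15 and 16. The labels call them biological replicates without saying whether a sample held 1 mouse or a pool.

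Prostaglandin E2 is a short-lived lipid signal that OBs both release and respond to. Phospholipases free arachidonic acid from membranes, the cyclooxygenases encoded by *Ptgs1* and *Ptgs2* turn it into prostaglandin H2, and terminal synthases convert this into single prostaglandins. *Ptgs1* is broadly and steadily expressed in most tissues, whereas *Ptgs2* is induced by cytokines, mechanical load and growth factors. Prostaglandin E2 acts on EP1 to EP4, of which EP2 and EP4 raise cAMP, EP3 mostly lowers it and EP1 raises calcium. In bone the pathway is known for both anabolic and resorptive effects and for its part in fracture repair.

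Expression was given as FPKM, a count of fragments scaled by transcript length and sequencing depth, so that levels of different genes can be set side by side. The estimated depth was 4555297 to 7777934 reads per sample, with both days overlapping. The 7 OB markers (*Runx2*, *Sp7*, *Dlx5*, *Alpl*, *Ibsp*, *Col1a1* and *Bglap2*) were above 0 in all 6 samples. Their summed FPKM was 28368 to 54192 on day 10 and 15669 to 38269 on day 14. Replicate 2 of day 14 stood apart from the other samples of its day: the summed FPKM of 10 chondrocyte markers was 2329 there, against 180 and 160.0 in replicates 1 and 3 and 669 to 1302 on day 10. The summed FPKM of 10 myeloid markers was lowest in the same sample (20.4) and highest in replicate 3 of day 14 (618), with 36.1 to 262 in the other samples, and *Ptprc*, which encodes CD45, was at 0.13 to 2.99 FPKM in all 6. The 6 fibroblast markers summed to 79.5 to 161 FPKM on day 10 and to 170, 109 and 431 FPKM in replicates 1, 2 and 3 of day 14. The endothelial and mast cell markers summed to at most 6.74 and 5.09 FPKM. At 0 in some samples were *Matn1* of the chondrocyte list and *Fcer1g*, *Aif1* and *Emr1* of the myeloid list. So were *Emcn* and *Cldn5* of the endothelial list and all mast cell markers but *Kit*. At an unadjusted p under 0.05 from limma, 2 of 7 OB markers and 1 of 10 chondrocyte markers were lower on day 14. At this threshold 1 of 8 endothelial and 1 of 6 fibroblast markers were higher, and none of 10 myeloid or 6 mast cell markers was either. Over all genes tested, 5.6% were higher and 4.4% lower. The median log2 difference, day 14 minus day 10, was −1.69 for OB, −1.48 for chondrocyte and −0.62 for mast cell markers. It was 1.14 for fibroblast, 0.77 for endothelial and 0.67 for myeloid markers, beside −0.04 for all genes tested. Because these are bulk samples, fewer cells of a type and less RNA per cell cannot be told apart.

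The stretches around the start sites are shown for 4 genes. The cyclooxygenase pair was taken because the transcripts for these enzymes of the same reaction differed widely in level. *Ptger3* and *Ptger4* were taken because their samples separated by day. Each stretch runs 5′ to 3′ on the strand of the gene, from 250 bases before the RefSeq start site to 50 bases from it on, in the GRCm38.p6 build, which is the build of mm10. *Ptgs2* is at chr1:150099781-150100080 on the plus strand, *Ptgs1* at chr2:36230176-36230475 on the plus strand, *Ptger3* at chr3:157566626-157566925 on the plus strand and *Ptger4* at chr15:5244138-5244437 on the minus strand. Capitals mark matches on either strand to 7 motifs: a TATA box (TATAAA), a CRE half-site (TGACG), a C/EBP motif (TTGCNNAA), an E-box (CACGTG), a GC box (GGGCGG), a Runx motif (AACCACA) and the NF-kB consensus.
Ptgs2: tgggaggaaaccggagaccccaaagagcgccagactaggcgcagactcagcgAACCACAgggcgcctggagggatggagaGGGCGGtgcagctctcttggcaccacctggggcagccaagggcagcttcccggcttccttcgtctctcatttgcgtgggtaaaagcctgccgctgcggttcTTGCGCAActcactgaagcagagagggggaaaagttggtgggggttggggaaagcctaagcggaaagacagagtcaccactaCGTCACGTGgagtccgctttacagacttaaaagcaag
Ptgs1: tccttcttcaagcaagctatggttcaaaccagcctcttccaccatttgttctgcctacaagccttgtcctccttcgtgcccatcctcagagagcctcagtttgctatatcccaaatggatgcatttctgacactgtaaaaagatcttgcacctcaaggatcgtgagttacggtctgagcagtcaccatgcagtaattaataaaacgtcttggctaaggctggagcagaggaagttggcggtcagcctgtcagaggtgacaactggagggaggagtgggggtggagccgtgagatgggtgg
Ptger3: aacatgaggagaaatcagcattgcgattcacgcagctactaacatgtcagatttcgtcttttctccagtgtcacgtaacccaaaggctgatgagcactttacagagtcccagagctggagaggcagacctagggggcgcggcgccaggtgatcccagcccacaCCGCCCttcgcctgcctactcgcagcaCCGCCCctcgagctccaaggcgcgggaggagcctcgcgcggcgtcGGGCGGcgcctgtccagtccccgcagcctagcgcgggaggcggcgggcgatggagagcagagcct
Ptger4: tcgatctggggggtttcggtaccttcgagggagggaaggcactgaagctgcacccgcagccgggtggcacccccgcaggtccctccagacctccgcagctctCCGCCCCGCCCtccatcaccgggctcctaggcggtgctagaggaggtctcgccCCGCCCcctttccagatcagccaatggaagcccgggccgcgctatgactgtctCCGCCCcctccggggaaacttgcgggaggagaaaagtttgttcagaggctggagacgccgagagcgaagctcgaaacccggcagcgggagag

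The *Ptgs2* stretch held a Runx motif starting at −198, a GC box at −170, a C/EBP motif at −69, a CRE half-site at 14 and an E-box at 17, counted from the start site as 1, and the last 2 overlap. These motifs occurred in 5.27%, 35.7%, 10.8%, 20.8% and 7.15% of the 32851 stretches of the same length around RefSeq start sites. The *Ptgs1* stretch held none of the 7 motifs. *Ptger3* held 3 and *Ptger4* held 4 GC boxes, 2 of which overlap in *Ptger4*, and neither held another of the motifs. The other motifs, TATAAA and the NF-kB consensus, occurred in 13.6% and 8.46% of all stretches and in none of these 4. Such matches describe the letters only. Stretches were found for 8 of the 10 genes, all but *Ptgis* and *Ptger1*.

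*Ptgs2*, the gene of the inducible cyclooxygenase COX-2 on chromosome 1 from 150100031 to 150108227, was the highest of the 10 genes in 6 of 6 samples. Replicates 1, 2 and 3 of day 10 measured 315, 272 and 367 FPKM, and those of day 14 measured 399, 608 and 277 FPKM. Its mean over the 6 samples of 373 FPKM ranked 143 among all 23284 genes listed. The mean was 318 ± 47.3 FPKM (day 10, SD, n = 3) and 428 ± 167 FPKM (day 14, SD, n = 3). The days overlapped, with replicate 2 of day 14 the highest and replicate 3 of day 14 between the day 10 samples. On the scale of log2(FPKM + 0.1), the difference of day 14 minus day 10 was 0.36 (standard error 0.29, 95% interval −0.30 to 1.03, adjusted p = 0.752 from limma over 19526 genes), within the spread between replicates. It was 0.07 without replicate 2 of day 14 and 0.64 without replicate 3 (unadjusted p = 0.0433 from limma). Bone pieces of both days had been digested with trypsin and collagenase before sorting. The part of this step in the level of *Ptgs2* was not tested.

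*Ptgs1*, the gene of the constitutive cyclooxygenase COX-1 on chromosome 2 from 36230426 to 36252272, measured 4.15, 4.24 and 3.72 FPKM in the day 10 samples and 4.36, 3.996 and 2.45 FPKM in those of day 14. Replicate 3 of day 14 was the lowest, and the other samples lay between 3.72 and 4.36 FPKM. The log2 difference was −0.20 (standard error 0.27, adjusted p = 0.873 from limma). Within a sample, the level of *Ptgs2* was 62.7 to 96.0 times that of *Ptgs1* on day 10 and 89.5 to 148 times on day 14, as a ratio of FPKM + 0.1. The log2 ratio was 6.26 ± 0.309 (day 10, SD, n = 3) and 6.82 ± 0.368 (day 14, SD, n = 3), and the samples of the days overlapped (exact permutation p = 0.2, two-sided, and 0.5 after adjustment over 5 ratios).

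**Figure D1:**
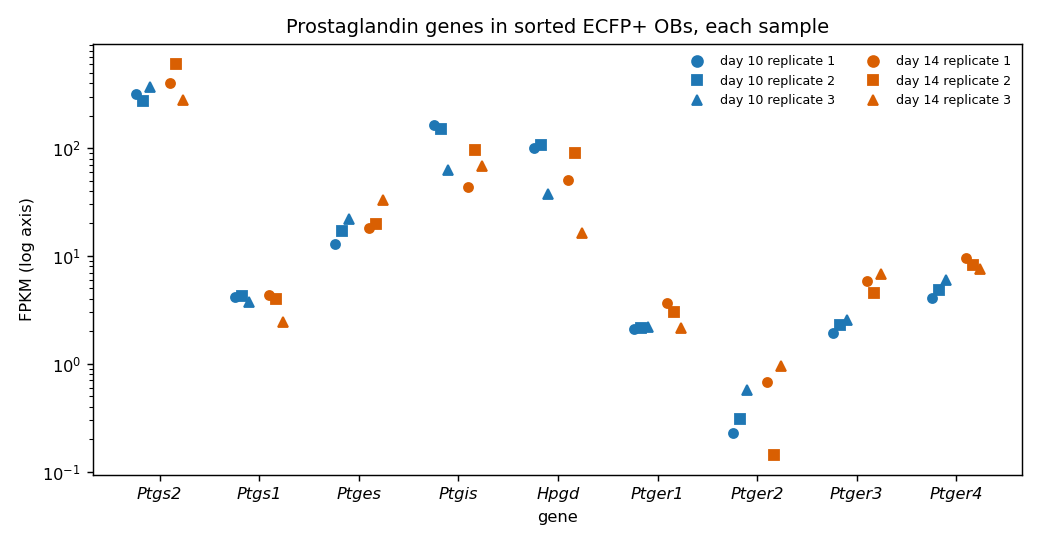
FPKM on a log axis for 9 of the 10 genes, with circles, squares and triangles for replicates 1, 2 and 3 of day 10 (blue) and day 14 (orange); *Ptgds*, at 0 in 5 of 6 samples, is left out. *Ptgs2* lies above all other genes at 272 to 608 FPKM and *Ptger2* below them at 0.142 to 0.953 FPKM.

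Of the terminal synthases, *Ptgis* and *Ptges* were both well expressed and *Ptgds* was not. *Ptgis*, which encodes prostacyclin synthase (chromosome 2, 167191805 to 167240604), measured 163, 149.8 and 62.9 FPKM in the day 10 samples and 43.9, 96.3 and 68.7 FPKM in those of day 14. Replicates 1 and 2 of day 10 were the highest, while replicate 3 of day 10 lay below replicates 2 and 3 of day 14. The log2 difference was −0.80 (standard error 0.40, 95% interval −1.71 to 0.12, adjusted p = 0.562 from limma). *Ptges*, which encodes the inducible microsomal prostaglandin E synthase that often works with COX-2 (chromosome 2, 30889471 to 30929863), measured 12.8, 17.0 and 22.05 FPKM in the day 10 samples and 18.2, 19.8 and 32.7 FPKM in those of day 14. Replicate 3 was the highest sample on each day, and the days overlapped. Its log2 difference was 0.43 (standard error 0.27, 95% interval −0.20 to 1.06, adjusted p = 0.663 from limma).

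*Ptgis* exceeded *Ptges* in 6 of 6 samples, by 2.84 to 12.6 times on day 10 and 2.09 to 4.85 times on day 14 as a ratio of FPKM + 0.1. The log2 ratio was 2.77 ± 1.12 (day 10, SD, n = 3) and 1.54 ± 0.650 (day 14, SD, n = 3) (exact permutation p = 0.2, two-sided, and 0.5 after adjustment over 5 ratios). *Ptgds*, the gene of lipocalin-type prostaglandin D synthase (chromosome 2, 25466709 to 25470046), was listed at 0 FPKM in 5 samples. Replicate 2 of day 10 had 0.304 FPKM, which is below the 0.800 FPKM that 3 reads on this gene would give at that depth. It fell below the filter of a mean of 0.1 FPKM and was the only 1 of the 10 genes not tested.

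*Hpgd*, the gene of the 15-hydroxyprostaglandin dehydrogenase that inactivates prostaglandin E2 (chromosome 8, 56294585 to 56321043), was expressed at a level near that of *Ptgis*. It measured 99.2, 107 and 37.3 FPKM in the day 10 samples and 51.1, 90.5 and 16.2 FPKM in those of day 14. The spread within each day was wide (SD 38.2 and 37.2 FPKM around means of 81.2 and 52.6 FPKM, n = 3 each), and the log2 difference of −0.80 (standard error 0.62, 95% interval −2.22 to 0.62, adjusted p = 0.744 from limma) was within it. The 3 highest samples for *Hpgd* were replicates 1 and 2 of day 10 and replicate 2 of day 14, and these were also the 3 highest for *Ptgis*. The same 3 samples had the highest sums of OB markers (54192, 52070 and 38269 FPKM) and of chondrocyte markers (1302, 1088 and 2329 FPKM). The OB sums are mostly *Col1a1* and *Ibsp* (27384 and 25254 FPKM in replicate 1 of day 10). The chondrocyte sums are mostly *Comp* and *Col2a1* (1383 and 688 FPKM in replicate 2 of day 14). By the mean log2(FPKM + 0.1) of each list, the same 3 samples were also highest. Not every marker followed, such as *Sox9* at 34.3 FPKM in replicate 2 and 38.0 FPKM in replicate 3 of day 10. The part of these markers in the levels of *Hpgd* and *Ptgis* was not tested. Without replicate 2 of day 14, the log2 difference was −1.35 for *Hpgd* (unadjusted p = 0.0457 from limma) and −1.07 for *Ptgis* (unadjusted p = 0.0321 from limma), and with all samples the unadjusted p was 0.232 and 0.0791. Without replicate 3 of day 14, in contrast, the log2 difference of *Hpgd* was −0.11 (unadjusted p = 0.820 from limma).

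*Ptges* was below *Hpgd* in 5 of 6 samples, by 1.69 to 7.69 times on day 10 and by 2.79 and 4.56 times in replicates 1 and 2 of day 14. In replicate 3 of day 14 it was 2.02 times above it. The log2 ratio of *Ptges* to *Hpgd* was −2.12 ± 1.19 (day 10, SD, n = 3) and −0.89 ± 1.68 (day 14, SD, n = 3) (exact permutation p = 0.4, two-sided, and 0.5 after adjustment over 5 ratios).

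**Figure D2:**
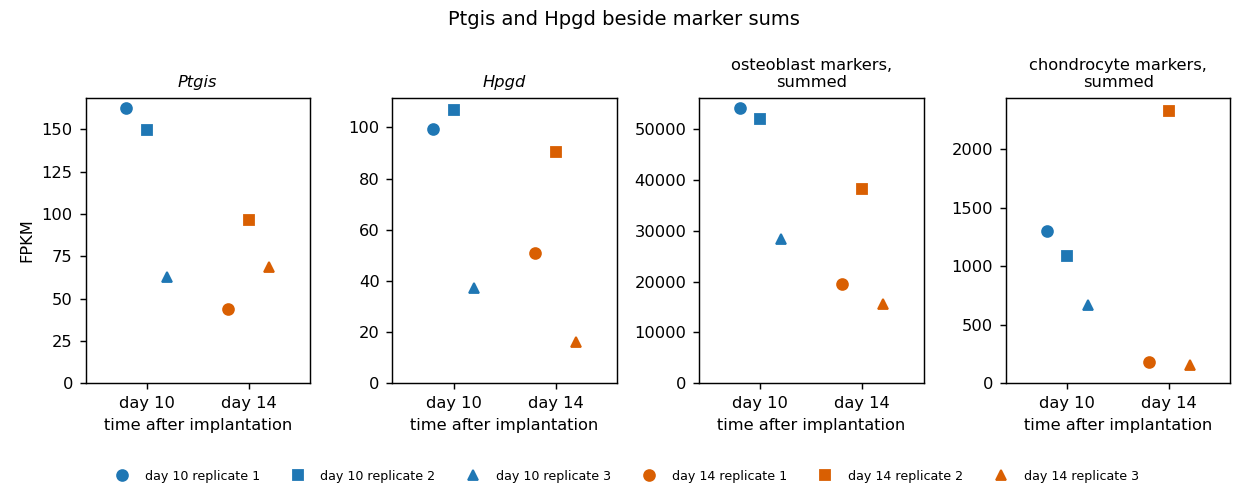
FPKM of *Ptgis* and *Hpgd* and the summed FPKM of 7 OB markers and 10 chondrocyte markers, with 1 point per sample, by day; symbols give the replicate. In the first 3 panels replicates 1 and 2 of day 10 and replicate 2 of day 14 are the 3 highest samples, and in the last panel the same 3 lead with replicate 2 of day 14 on top (2329 FPKM).

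All 4 EP receptor genes were above 0 in all 6 samples, at levels below those of *Ptgs2*, *Ptgis*, *Hpgd* and *Ptges*. *Ptger4*, the gene of the cAMP-raising receptor EP4 (chromosome 15, 5206661 to 5244187), was the highest of the 4 in 6 of 6 samples. It measured 4.07, 4.82 and 5.93 FPKM in the day 10 samples and 9.54, 8.19 and 7.57 FPKM in those of day 14. The lowest of the later values was above the highest of the earlier ones. The log2 difference was 0.77 (standard error 0.21, 95% interval 0.28 to 1.26), a fold of 1.71, with an unadjusted p of 0.00651 and an adjusted p of 0.327 from limma, so it did not pass the threshold over all genes tested.

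*Ptger3*, the gene of the mostly cAMP-lowering receptor EP3 (chromosome 3, 157566892 to 157645888), measured 1.92, 2.31 and 2.55 FPKM in the day 10 samples and 5.80, 4.56 and 6.80 FPKM in those of day 14. The days were fully separated, with a gap from 2.55 to 4.56 FPKM and a wider spread within day 14 than within day 10. The mean was 2.26 ± 0.321 FPKM (day 10, SD, n = 3) and 5.72 ± 1.12 FPKM (day 14, SD, n = 3). The log2 difference was 1.29 (standard error 0.25, 95% interval 0.71 to 1.87), a fold of 2.45. Its unadjusted p from limma was 0.000819, rank 51 of the 19526 genes tested, but the adjusted p was 0.292. In a two-sided exact permutation test of a single gene, p was 0.1 for *Ptger3* and for *Ptger4*, the smallest that 3 samples against 3 allow.

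Without replicate 2 of day 14 the log2 difference was 1.44 for *Ptger3* and 0.79 for *Ptger4*, and without replicate 3 of day 14 it was 1.16 and 0.84. The summed fibroblast markers, like the myeloid ones, were highest in replicate 3 of day 14, and both sums overlapped between the days. The part of the OB, chondrocyte, myeloid and fibroblast markers in these differences was not tested. From estimated reads, which are approximate for genes with several transcripts, *Ptger3* rested on 27.5 to 58.2 reads per sample on day 10 and 77.4 to 140.6 on day 14.

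The remaining EP receptor genes did not separate by day. *Ptger1*, the gene of the calcium-coupled EP1 (chromosome 8, 83666678 to 83672753), measured 2.11, 2.14 and 2.19 FPKM in the day 10 samples and 3.69, 3.05 and 2.14 FPKM in those of day 14. The day 10 samples were nearly equal, and replicate 3 of day 14 lay among them (log2 difference 0.41, standard error 0.29, adjusted p = 0.705 from limma). The *Ptger1* value is uncertain, since no use of strand in counting is given in the sources used here. *Ptger2*, the gene of the cAMP-raising EP2 (chromosome 14, 44988195 to 45003820), measured 0.229, 0.306 and 0.577 FPKM in the day 10 samples and 0.675, 0.142 and 0.953 FPKM in those of day 14. These values correspond to only 2.9 to 23.3 estimated reads, with replicate 2 of day 14 under the 0.146 FPKM that 3 reads would give there, and the log2 difference of 0.38 had a standard error of 0.70 (adjusted p = 0.915 from limma).

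**Figure D3:**
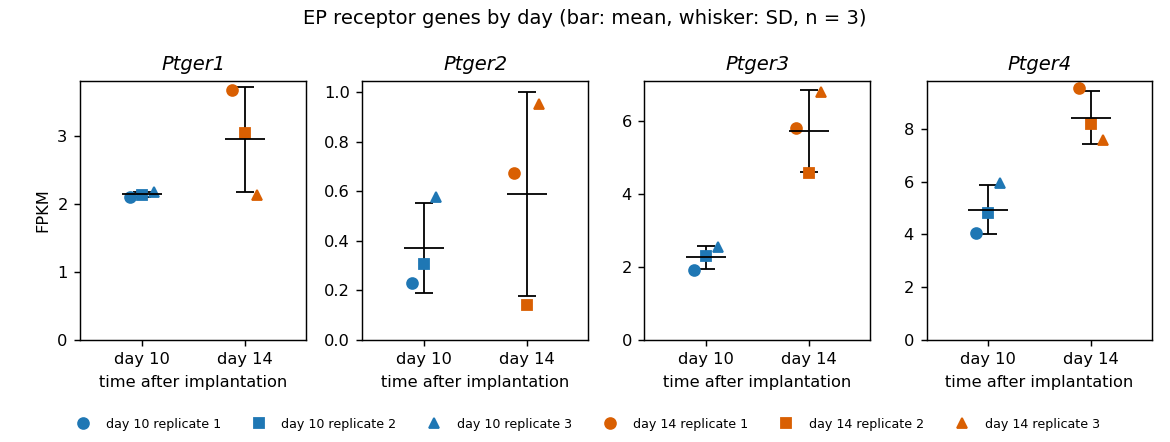
FPKM of the 4 EP receptor genes on day 10 (blue) and day 14 (orange), 1 point per sample with symbols for the replicate, mean as a bar and SD as a whisker (n = 3). *Ptger3* (1.92 to 2.55 against 4.56 to 6.80 FPKM) and *Ptger4* (4.07 to 5.93 against 7.57 to 9.54 FPKM) show no overlap between the days, whereas *Ptger1* and *Ptger2* overlap.

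The 4 receptor genes together summed to 8.32, 9.57 and 11.2 FPKM on day 10 and to 19.7, 15.9 and 17.5 FPKM on day 14. *Ptger4* made up 50.6% ± 1.97 (SD, n = 3) of this sum on day 10 and 47.7% ± 4.06 (SD, n = 3) on day 14. The share of *Ptger3* was 23.3% ± 0.748 (day 10, SD, n = 3) and 32.3% ± 5.73 (day 14, SD, n = 3), and that of *Ptger1* was 22.4% ± 2.98 and 16.7% ± 3.84 (SD, n = 3 each). *Ptger2* took 0.891% to 5.46% of the sum. The sum, all shares and the ratio of *Ptger1* to *Ptger4* include *Ptger1*, whose value is uncertain. The log2 ratio of *Ptger1* to *Ptger4* differed by −0.36 and that of *Ptger2* to *Ptger4* by −0.39 between the days (two-sided exact permutation tests, p = 0.3 and 0.8, adjusted p = 0.5 and 0.8 over the 5 ratios).

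Ordered by FPKM, *Ptgs2* came first in 6 of 6 samples, *Ptgis* and *Hpgd* followed in 5 of 6 samples with *Ptges* after them, and the receptors and *Ptgs1* stood below. *Ptgis* was above *Hpgd* in all samples but replicate 1 of day 14. *Ptger4* and *Ptgs1* lay within their spread of each other on day 10 (4.94 ± 0.940 and 4.04 ± 0.278 FPKM, SD, n = 3), with *Ptgs1* the higher in replicate 1 only. *Ptger3* was below *Ptgs1* in all 3 samples of day 10 and above it in all 3 samples of day 14. *Ptger1* and *Ptger3* were close on day 10 (2.15 ± 0.0368 and 2.26 ± 0.321 FPKM, SD, n = 3), whereas *Ptger3* was above *Ptger1* in every day 14 sample.

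Over the 9 genes tested, none had an adjusted p under 0.05 from limma, in a comparison where 3 of 19526 genes (0.0154%) had one. At an unadjusted p under 0.05 from limma, 2 of the 9 were higher on day 14 (*Ptger3* and *Ptger4*) and none was lower, against 5.6% of all genes tested that were higher and 4.4% that were lower at this threshold. The same 2 genes were those without overlap between the days, where 7.59% of all genes tested were fully separated upwards and 6.67% downwards. A fold change over 2 was reached by *Ptger3* alone, where 5.25% of all genes were higher and 8.39% lower by that much. The median log2 difference of the 9 genes was 0.38, beside −0.04 for all genes tested. Without replicate 2 of day 14, 4 of the 9 had an unadjusted p under 0.05 from limma and 4 were over 2-fold, while the count of all genes with such a p was 2557 of 19674, against 1954 of 19526 with all samples. The share of all genes over 2-fold was not taken without that sample.

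**Figure D4:**
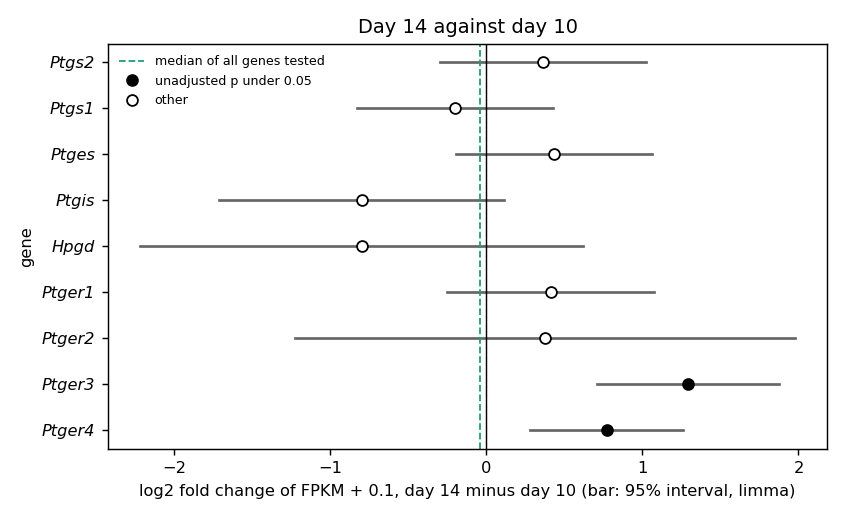
Log2 difference of FPKM + 0.1, day 14 minus day 10, for the 9 genes tested, with 95% intervals from limma; filled points have an unadjusted p under 0.05 and the dashed line is the median of all genes tested (−0.04). The intervals of *Ptger3* (0.71 to 1.87) and *Ptger4* (0.28 to 1.26) lie above 0, and those of the other 7 genes include 0.

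The other genes of the pathway were read from 8 lists with 108 genes in all, of which 102 were tested. The lists were chosen with earlier results of these data known, so their counts are a description only. None had an adjusted p under 0.05 from limma (smallest 0.116). At an unadjusted p under 0.05 from limma, 17 were higher and 2 lower on day 14, where 5.6% of all genes tested were higher and 4.4% lower. These shares also apply to the counts of each list. For genes without overlap between the days, 7.59% of all genes tested were separated upwards and 6.67% downwards. Upstream of the cyclooxygenases, none of the 13 tested genes of arachidonate release had such a p. *Pla2g4a*, the cytosolic phospholipase that feeds COX-2, was the highest of them at 34.5 ± 9.43 FPKM (day 10, SD, n = 3) and 43.4 ± 8.13 FPKM (day 14, SD, n = 3), followed by *Pla2g12a* at 17.4 to 22.8 FPKM and the monoglyceride lipase *Mgll* at 5.03 to 14.5 FPKM. The list's median log2 difference was −0.19.

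None of the 7 other prostanoid synthases had an unadjusted p under 0.05 from limma, and their median log2 difference was −0.36. *Ptges3*, which encodes the cytosolic prostaglandin E synthase and Hsp90 co-chaperone p23, was at 16.7 to 26.2 FPKM, close to *Ptges* itself. *Cbr1* was at 9.77 to 20.8 FPKM, and *2810405K02Rik*, an older symbol of the prostamide and prostaglandin F synthase gene *Prxl2b*, at 8.13 to 16.4 FPKM. A further list held the other prostanoid receptors and *Ptgfrn*, which encodes a regulator of the prostaglandin F receptor rather than a receptor, and 4 of its 6 genes were tested. *Ptgir*, the gene of the prostacyclin receptor, measured 0.131, 0.291 and 0.739 FPKM in the day 10 samples and 3.43, 0.916 and 2.71 FPKM in those of day 14. Its days were separated, though only narrowly between replicate 3 of day 10 and replicate 2 of day 14 (log2 difference 2.35, standard error 0.66, unadjusted p = 0.00675, adjusted p = 0.329 from limma). *Ptgfrn*, *Tbxa2r* and *Ptgfr* were at 4.06 to 7.96, 2.33 to 6.15 and 1.16 to 3.06 FPKM, and the median log2 difference of the list, *Ptgfrn* included, was 0.27. *Ptgir* was the only gene of it with an unadjusted p under 0.05 from limma.

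Of the 8 genes of transport and breakdown, 2 were higher and 1 was lower at an unadjusted p under 0.05 from limma, with a median log2 difference of −0.07. Without overlap between the days were 2 genes upwards and 2 downwards, where 7.59% and 6.67% of all genes tested were. *Ptgr1* and *Ptgr2* encode the reductases that act on the product of *Hpgd*, and both were without overlap. *Ptgr1* was at 7.14 ± 1.70 FPKM (day 10, SD, n = 3) and 11.9 ± 1.598 FPKM (day 14, SD, n = 3) (log2 difference 0.75, adjusted p = 0.340 from limma). *Ptgr2* was at 8.95 ± 1.31 and 12.6 ± 0.532 FPKM (SD, n = 3 each; log2 difference 0.50, adjusted p = 0.3998 from limma). The carbonyl reductase gene *Cbr3* was at 8.32 ± 1.82 FPKM on day 10 and 5.23 ± 0.216 FPKM on day 14 (SD, n = 3 each), also without overlap (log2 difference −0.64, adjusted p = 0.395 from limma). The organic anion transporter gene *Slco3a1* was the highest of the list at 13.7 to 21.0 FPKM.

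In the lipoxygenase branch, which turns arachidonic acid into leukotrienes and related lipids, 1 of 11 tested genes was higher at an unadjusted p under 0.05 from limma and none was lower (median log2 difference −0.00). *Ltc4s*, the leukotriene C4 synthase gene, measured 0.537, 2.87 and 2.03 FPKM in the day 10 samples and 13.2, 3.55 and 5.21 FPKM in those of day 14 (log2 difference 2.00, adjusted p = 0.374 from limma). *Alox5*, whose product makes the leukotriene precursor, was at 0.0643 to 0.751 FPKM. *Lta4h* was at 29.2 to 39.8 FPKM and *Alox5ap* at 0.316 to 7.45 FPKM. *Alox5ap* and *Ltc4s* are also expressed by myeloid cells, whose summed markers ran from 20.4 to 618 FPKM, and their part in these values was not tested.

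Downstream of the receptors, 22 genes of EP signalling were tested, and 2 were higher and 1 lower at an unadjusted p under 0.05 from limma (median log2 difference 0.20). *Adcy4*, an adenylyl cyclase gene, was at 0.869 ± 0.319 FPKM on day 10 and 2.30 ± 0.638 FPKM on day 14 (SD, n = 3 each; log2 difference 1.34, adjusted p = 0.359 from limma). *Arrb2*, a beta-arrestin gene, had a log2 difference of 1.14 and *Gna11*, a G protein subunit gene that couples to phospholipase C, one of −0.49 (adjusted p = 0.492 and 0.449 from limma). *Gnas*, which encodes the stimulatory G protein subunit used by EP2 and EP4, was the highest at 417 to 727 FPKM, above *Gnai2* at 150.3 to 197 FPKM and *Prkar1a* at 73.5 to 99.1 FPKM.

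Of 20 genes known to respond to cAMP or prostaglandin E2 in OBs, 7 were higher at an unadjusted p under 0.05 from limma and none was lower. This list, like the others, was chosen with earlier results of these data known. The 7 were the transcription factor gene *Crem*, the EGF-family ligand genes *Areg* and *Ereg*, the cytokine gene *Il6*, the osteoclast differentiation factor gene *Tnfsf11*, the hyaluronan synthase gene *Has2* and the kinase gene *Sgk1*. *Crem*, itself induced by cAMP, measured 7.91, 9.98 and 8.05 FPKM in the day 10 samples and 10.9, 18.4 and 16.2 FPKM in those of day 14 (log2 difference 0.78, adjusted p = 0.340 from limma). *Tnfsf11*, which encodes RANKL, measured 15.3, 22.2 and 15.6 FPKM in the day 10 samples and 22.5, 33.0 and 23.7 FPKM in those of day 14 (log2 difference 0.57, adjusted p = 0.434 from limma). *Areg* and *Ereg* had log2 differences of 1.34 and 1.20 with overlapping days, and *Il6*, *Has2* and *Sgk1* of 1.13, 0.45 and 0.71 without overlap. Of the 20 genes, 5 were separated upwards and none downwards, where 7.59% of all genes tested were separated upwards.

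The immediate early genes *Fos* and *Nr4a1* of the same list were at 1256 to 1965 and 135 to 278 FPKM, with log2 differences of −0.10 and 0.04 (adjusted p = 0.954 and 0.986 from limma). The list's median log2 difference was 0.43. The count of 7 depended on which samples were kept, and so did the count over all genes. Without replicate 1 of day 10, 3 were higher, with 937 of 19379 genes at such a p in either direction, and without replicate 2 of day 10, 3 were higher, with 1458 of 19424 genes. Without replicate 2 of day 14, 3 were higher and 1 was lower, with 2557 of 19674 genes. Without replicate 3 of day 10, 8 were higher, with 1972 of 19509 genes. With an ordinary linear model in place of limma, 2 were higher, with 1533 of 19526 genes at such a p in either direction.

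Among 17 genes known to regulate *Ptgs2* transcript, 4 were higher at an unadjusted p under 0.05 from limma and none was lower (median log2 difference 0.35). *Ptgs2* itself was not separated by day. The list was not split into genes that raise and genes that lower the transcript, and a link to *Ptgs2* was not tested. *Nfkb1*, an NF-kB subunit gene, measured 3.81, 5.02 and 4.13 FPKM in the day 10 samples and 7.44, 10.7 and 17.3 FPKM in those of day 14 (log2 difference 1.36, adjusted p = 0.297 from limma). *Rela*, the gene of its partner subunit, and *Cebpd*, a C/EBP factor gene, both had log2 differences of 0.54 (adjusted p = 0.430 and 0.319 from limma), and *Nr3c1*, the glucocorticoid receptor gene, one of 0.40 (adjusted p = 0.479 from limma). None of these 4 overlapped between the days. Of all 17 genes, 5 were separated upwards, where 7.59% of all genes tested were. Without replicate 1 of day 10 the count was 2, with 937 of 19379 genes at such a p in either direction. The highest genes of the list were *Dusp1* at 699 to 1075 FPKM, *Egr1* at 601 to 1176 FPKM and *Zfp36*, whose product destabilises AU-rich transcripts, at 337 to 638 FPKM.

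**Figure D5:**
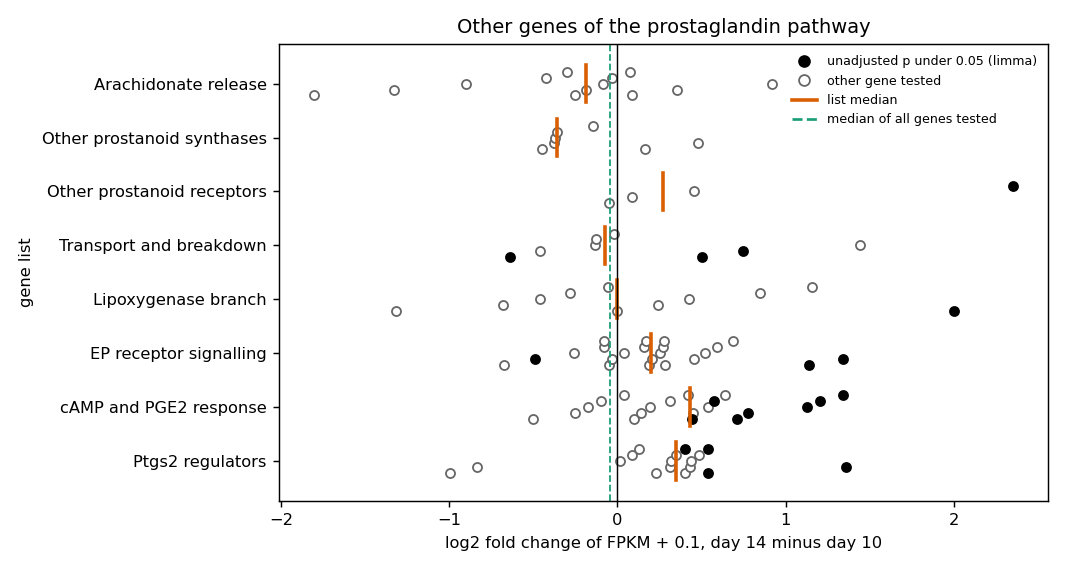
Log2 difference of FPKM + 0.1, day 14 minus day 10, for the tested genes of 8 lists around the prostaglandin pathway, 1 point per gene; filled points have an unadjusted p under 0.05 from limma, orange bars are list medians and the dashed line is the median of all genes tested (−0.04). The medians of the cAMP and PGE2 response genes (0.43) and of the *Ptgs2* regulators (0.35) lie to the right of that line, and those of arachidonate release (−0.19) and of the other synthases (−0.36) to its left. The lists were chosen with earlier results of these data known.

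The genes whose log2(FPKM + 0.1) was most like that of *Ptgs2* over the 6 samples, among 11161 genes with a mean of at least 1 FPKM, were *Ndrg3*, *Kirrel*, *Pawr*, *Mbnl3* and *Itga7*, with a Pearson r of 0.988, 0.988, 0.985, 0.977 and 0.975. All 5 had their highest value in replicate 2 of day 14, as *Ptgs2* did. *Pawr* ran from 7.07 to 33.8 FPKM. With so many genes and 6 samples, values this high are a description of these samples only.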

How the data were processed

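RNA-seq of ECFP+ OBs sorted on day 10 and day 14 was analysed from 6 files, 1 per sample. The authors called bases with Casava, aligned the single-end 75-base reads against mm10 using TopHat2 2.0.13, Bowtie2 2.2.3 and SAMtools 0.1.19, and deposited FPKM per gene from Cufflinks 2.2.1. The gene annotation and any use of strand are not given in the sources used here. The 25 symbols turned into dates in 1 file, none of them analysed here by name, were restored by position.

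Depth was estimated from the steps of low FPKM values in 1977 genes with 1 transcript (fragment length 218 bases by a scan). Floors and estimated reads cover counting error only.

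Days were compared with limma 3.58.1 in R 4.3.3 (eBayes, trend set to true), fitted to log2(FPKM + 0.1) of genes with a mean above 0.1 FPKM, with Benjamini-Hochberg adjustment over all genes tested. Single ratios were compared with two-sided exact permutation tests in SciPy 1.17.1. The p-values measure the spread between samples, whose independence beyond the label is not described. In a simulation, the fit recovered 55 of 200 genes (27.5%) given a log2 difference of 2, and 1 unchanged gene was picked falsely. At log2 differences of 3 and 4 it recovered 53.5% and 65.5% of 200 genes, with 5 and 8 picked falsely. Many genes with such differences were thus missed, so an adjusted p above 0.05 does not show that a gene was unchanged. A detail bearing on *Ptger1* is not reported here. Positions are from GENCODE vM21, start site sequences from RefSeq, and 3 list genes were matched by older symbols. The 10 genes were taken by symbol. Of each list the text names genes with an unadjusted p under 0.05 and up to 3 with the highest mean, besides *Alox5*, chosen after its values were seen. The genes and lists were chosen with earlier results of these data known. Alternatives were another pseudocount, filter, scaling or variance model, a replicate block, and leaving out each sample.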

Additional observations from a re-analysis of the deposited data

How the results depend on the processing

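No gene of the 10 had an adjusted p under 0.05 from limma under any of 15 alternatives. *Ptger3* kept a log2 difference of 1.03 to 1.44 and an unadjusted p of 0.000598 to 0.00501 in all 15, and *Ptger4* one of 0.64 to 0.91 and 0.00523 to 0.0269. Over all genes, the count at an adjusted p under 0.05 was 6 with an ordinary linear model, and 3 to 76 with 1 sample left out, the highest without replicate 2 of day 14. Of the 9 genes tested, 2 to 4 then had an unadjusted p under 0.05 from limma and 1 to 4 were over 2-fold, with 3 over 2-fold without replicate 3 of day 10. The pathway lists held 12 genes at an unadjusted p under 0.05 with an ordinary linear model and 9 to 24 with 1 sample left out, beside 19. Over all genes, 1533 of 19526 had such a p with the ordinary linear model. With 1 sample left out, the count ran from 937 of 19379 (without replicate 1 of day 10) to 2559 of 18804 (without replicate 1 of day 14). The share of all genes over 2-fold was not taken for these fits. *Ptgs2* reached an unadjusted p of 0.0433 (log2 difference 0.64) without replicate 3 of day 14, and *Ptgis* one of 0.00523 (−1.24) without replicate 3 of day 10. The sign turned for *Ptgs1* to 0.0501 (lowest −0.35) and for *Ptger2* to −0.0515 (highest 1.01) without replicate 3 of day 14, and for the log2 ratio of *Ptger2* to *Ptger4* to 0.22 (lowest −0.90) without replicate 2. The causes were not tested. In a fit that took replicate numbers as a block, 4 genes of the 9 had an unadjusted p under 0.05, adding *Hpgd* (0.00767) and *Ptges* (0.0324), 9 of the 20 cAMP and PGE2 response genes were higher at that threshold with 2130 of 19526 genes in either direction, and 2 genes in all had an adjusted p under 0.05 from limma. Same-numbered samples deviated together with r of 0.0580, −0.00584 and 0.0887, so the numbers were not taken as a pairing. Of the 10 genes, depth limits *Ptger2* and *Ptgds*, which rest on few reads. Reads were not estimated for the list genes, some of which, such as *Ptgir*, *Ltc4s*, *Adcy4* and *Arrb2*, had low values on day 10.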
